A study of Mus musculus with 4 samples.

Results

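Conjugation, the so-called phase II of drug and hormone metabolism, is carried out in liver by 3 large enzyme superfamilies, and their genes were read here in livers of HFD mice with and without the agent I3A. The genes were taken by symbol from the protein-coding rows of the count table, as the families Ugt1a, Ugt2a, Ugt2b, Ugt3a, Gsta, Gstk, Gstm, Gsto, Gstp, Gstt, Gstz, Mgst and Sult. This gave 67 of 54532 genes, of which 21 encode UDP-glycosyltransferases (UGT), 25 glutathione S-transferases (GST, the microsomal Mgst genes included) and 21 sulfotransferases (SULT). The samples were 4 livers of C57BL/6 mice, an inbred strain, all with the treatment label HFD, which in such studies usually means a high-fat diet. Libraries 334 and 335 had HFD alone, and libraries 303 and 305 had HFD together with I3A, which the labels leave unexplained. The labels do not state age, sex, dose or duration, and no liver without HFD was analysed here. Nothing says that each library came from its own animal, and p-values then reflect only how much these libraries scatter, which may be technical.

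A conjugating enzyme joins a small polar group to its substrate so that the product can be exported into bile or blood. UGT enzymes sit in the endoplasmic reticulum and transfer a sugar, mostly glucuronic acid, from a UDP-sugar to bilirubin, steroids, bile acids and phenols. GST enzymes add glutathione to reactive electrophiles, and SULT enzymes in the cytosol transfer sulfate from the donor PAPS to phenols, steroids and bile acids. Many of the genes lie in tandem clusters of close relatives, while others, such as Mgst1, Gstk1 and Gstz1, lie apart. Levels differ strongly between sexes and between species.

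The libraries held 15005668 to 18255623 counts, so 1 count was worth 0.0581 to 0.0651 CPM (counts per 1000000 after TMM scaling), and 0 counts allow up to 0.174 to 0.195 CPM by counting error alone. Hepatocyte markers (6 genes, among them Alb and Ttr) summed to 81689 and 82769 CPM with HFD alone and to 90748 and 89399 CPM in I3A livers. Of these 6 genes 5 had positive and 1 a negative fold change. The Y-linked Ddx3y lay between 70.9 and 77.9 CPM in all 4 libraries, and Xist had at most 8 counts. HFD 335 carried transcripts typical of other tissues: 8 skeletal muscle markers summed to 687 CPM there and to at most 0.929 CPM elsewhere, 9 exocrine pancreas markers to 161 CPM against 12.8 to 24.9 CPM, and 8 markers of smooth muscle and mesothelium to 196 CPM against 5.46 to 7.03 CPM. I3A 305 was low in the 6 endothelial markers (51.6 CPM against 120.2 to 199 CPM) and in the 5 stellate cell markers (47.9 CPM against 128 to 337 CPM). The 337 CPM was that of HFD 335 and included 105 CPM of Des, which is also among the smooth muscle markers and measured 2.27 to 4.03 CPM elsewhere. Periportal hepatocyte markers summed to 5795 and 6742 CPM with HFD alone and to 8008 and 10762 CPM in I3A livers, whereas pericentral markers summed to 12699.8 to 13696 CPM with overlapping groups. Kupffer cell and macrophage markers (6 genes) summed to 98.9 and 87.5 CPM with HFD alone and to 124 and 113 CPM in I3A livers. The male-biased liver genes Elovl3 (336 and 337 CPM against 189.98 and 187 CPM; adjusted p = 0.145 in edgeR, 8.48e-09 in DESeq2) and Slco1a1 (617 and 560.1 CPM against 442 and 238 CPM), named after their values were seen, were lower in both I3A livers. Both come from a list of 10 genes sex-biased in mouse liver, of which 5 were tested, 4 lower and 1 higher in I3A livers. That list summed to 5610 and 6236 CPM with HFD alone and to 5295 and 5577 CPM in I3A livers. The part of these differences in the results below was not tested, and in such bulk samples fewer cells of a type and less RNA per cell cannot be told apart.

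The smallest adjusted p-values among the conjugation genes were those of Ugt2b1 and Ugt2b35, and the DNA just upstream of each Ugt2b gene is shown first, because these genes are neighbours of 1 subfamily that differed in direction. Each line gives the 120 bases that end just before the gene start that RefSeq annotates, 5′ to 3′ on the gene's own strand, from promoter windows on GRCm38.p6. Capitals mark every place where GTTAT and TTAAC stand 3 bases apart, an element that resembles the palindrome bound by the hepatocyte factor HNF1. Its letters were chosen after the windows had been read. In the order printed, the stretches are chr5:86906938-86907057, chr5:86926504-86926623, chr5:87000740-87000859, chr5:87092556-87092675, chr5:87140341-87140460, chr5:87254789-87254908 and chr5:87424204-87424323, all on the minus strand except that of Ugt2b35 on the plus strand.
Ugt2b34: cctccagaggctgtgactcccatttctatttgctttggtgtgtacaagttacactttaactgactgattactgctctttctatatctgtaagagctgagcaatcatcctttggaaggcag
Ugt2b1: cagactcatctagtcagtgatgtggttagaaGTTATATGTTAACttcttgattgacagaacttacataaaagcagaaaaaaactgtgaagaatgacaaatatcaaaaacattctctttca
Ugt2b35: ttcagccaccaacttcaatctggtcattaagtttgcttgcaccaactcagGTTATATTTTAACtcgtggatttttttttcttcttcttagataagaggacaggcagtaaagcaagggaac
Ugt2b36: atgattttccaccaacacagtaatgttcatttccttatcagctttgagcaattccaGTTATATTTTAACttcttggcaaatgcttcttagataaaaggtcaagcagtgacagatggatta
Ugt2b5: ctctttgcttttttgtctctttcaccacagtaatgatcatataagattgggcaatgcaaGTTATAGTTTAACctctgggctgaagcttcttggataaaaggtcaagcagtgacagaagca
Ugt2b37: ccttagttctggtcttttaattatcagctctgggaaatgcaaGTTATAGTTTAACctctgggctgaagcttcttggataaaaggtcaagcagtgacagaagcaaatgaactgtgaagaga
Ugt2b38: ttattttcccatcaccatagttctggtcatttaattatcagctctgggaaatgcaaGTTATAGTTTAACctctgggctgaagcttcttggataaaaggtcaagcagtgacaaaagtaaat

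On either strand of the 300-base windows, an exact match to this element was found in 6 of the 7 Ugt2b genes, all but Ugt2b34. No other of the 59 conjugation genes that have a window held an exact match. The printed stretch of Ugt2b34 holds gttacactttaac, with GTTAC in place of GTTAT. Near matches of this kind were not counted in any window. Among all 32851 windows 18 held an exact match (0.0548%), these 6 included. The element started between 61 and 89 bases before the gene start. It was present in Ugt2b1 and Ugt2b36, which measured lower in I3A livers, in Ugt2b35 and Ugt2b37, which measured higher, and in the level Ugt2b5, so its presence did not separate the directions. Over the 250 bases upstream, Ugt2b37 and Ugt2b38 were 84.8% identical, Ugt2b5 and Ugt2b38 81.5%, and Ugt2b5 and Ugt2b37 72.6%. Ugt2b1 and Ugt2b35 were the least alike of the 21 pairs, at 45.6%, and Ugt2b1 reached at most 48.2% with any other. The core of the antioxidant response element (TGACNNNGC, either strand) was in windows of 4 of the 59 genes (Gsta3, Gstm5, Gstm7 and Mgst1). Counted by window, it was in 5.63% of the 71 windows of the 59 genes and in 12.4% of all windows. The core of the xenobiotic response element (GCGTG, either strand) was in windows of 12 of the 59 genes, among them Gstm1, Gstp1 and Ugt1a5. By window, it was in 19.7% of the 71 and in 32.4% of all windows. A match is a description of letters, not a shown binding site.

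In edgeR's quasi-likelihood test none of the 44 conjugation genes tested had an adjusted p under 0.05, a level that 0 of all 13403 genes in the fit (0%) reached, and limma-voom gave 0 as well. DESeq2 called Ugt2b1, Ugt2b35 and Sult1a1 at that level, 3 of the 44 beside 2.5% of all tested genes. Higher and lower therefore describe measured values below.

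Ugt2b1 (chromosome 5, 86916638 to 86926530, minus strand, positions on GRCm38 as deposited), a member of the subfamily that glucuronidates steroids and bile acids, measured 592 CPM in HFD 334, 544 CPM in HFD 335, 344 CPM in I3A 303 and 366 CPM in I3A 305. Both I3A livers lay below both HFD livers, with group means of 568 ± 34.0 and 355 ± 15.9 CPM (SD, n = 2). The difference was 1.60-fold (log2 fold change -0.68 ± 0.11, SE; adjusted p = 0.167 in edgeR's quasi-likelihood test, 2.38e-05 in DESeq2). Ugt2b35 (chromosome 5, 87000860 to 87013275), its next neighbour and the single Ugt2b gene on the plus strand, went the other way, with 138 and 129.6 CPM with HFD alone and 195 and 208 CPM in I3A livers. It was 1.502-fold higher in I3A livers without overlap (log2 fold change 0.59 ± 0.10; adjusted p = 0.169 in edgeR, 0.00136 in DESeq2). Within a library, where scaling cancels, Ugt2b1 had 4.28 and 4.20 counts for each count of Ugt2b35 with HFD alone and 1.77 and 1.76 in I3A livers. This pair was chosen after its values were seen. Their transcripts share 0% and 0.303% of their 50-base stretches with transcripts of any other gene, so reads of either gene can hardly be mistaken for those of a relative.

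Of the other 5 Ugt2b genes, 1 was level, 3 were lower and 1 was higher in I3A livers, where level means a log2 fold change smaller than its SE. Ugt2b5, the most abundant with 30.6% of the family's CPM, was level, at 676 and 638 CPM with HFD alone and 648 and 661 CPM in I3A livers (log2 fold change -0.01 ± 0.10). Ugt2b36 measured 454 and 455 CPM in HFD livers against 363 and 372 CPM with I3A (log2 fold change -0.31 ± 0.10; edgeR adjusted p = 0.325). Ugt2b34 measured 443 and 459 CPM against 375 and 366 CPM (-0.28 ± 0.10; edgeR adjusted p = 0.338). For both, each I3A liver lay about as far below the HFD livers as the other one. Among the weakly expressed members, Ugt2b38 was lower in I3A livers (38.9 and 45.6 CPM against 30.8 and 35.4 CPM; log2 fold change -0.35 ± 0.13; edgeR adjusted p = 0.366). Ugt2b37 was 1.94-fold higher, from 5.34 and 8.25 CPM to 12.9 and 13.5 CPM (edgeR adjusted p = 0.272). Ugt2b5 and Ugt2b38 share 41.7% and 37.4% of their 50-base stretches with other genes and Ugt2b37 18.3%, and the sources used here do not say how reads that map to several places were counted, so these 3 values are uncertain to that extent. As a family, the 7 Ugt2b genes summed to 2347 and 2279 CPM with HFD alone and to 1968 and 2022 CPM in I3A livers, a ratio of 0.862 with no overlap.

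**Figure D1:**
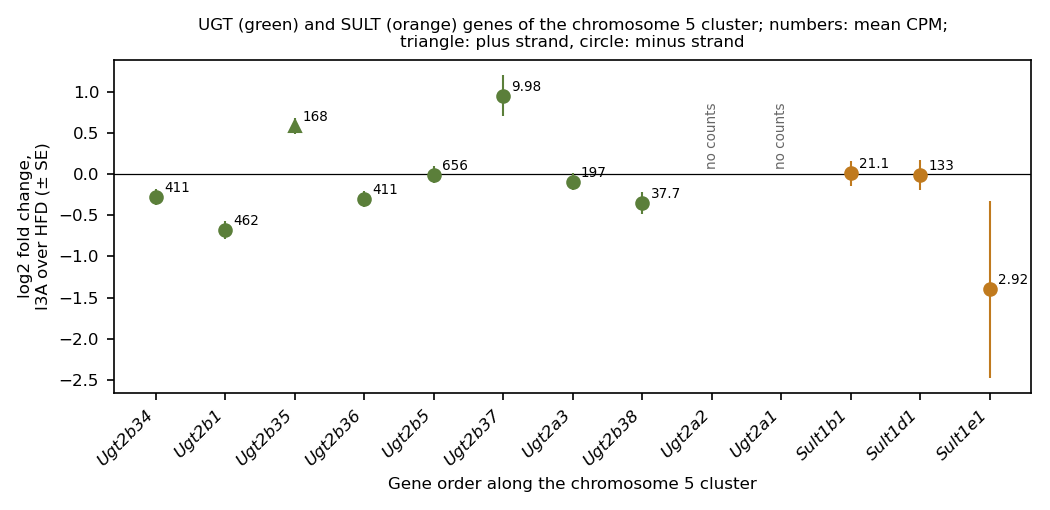
Log2 fold change of I3A over HFD (y axis, bars ± SE from the edgeR fit) for the 13 conjugation genes of the chromosome 5 cluster in their order along the chromosome (x axis, not to scale), with UGT genes in green, SULT genes in orange, triangles for the plus strand, circles for the minus strand and the mean CPM over the 4 libraries beside each point. Ugt2b1 at -0.68 and Ugt2b35 at 0.59 stand side by side, Ugt2b5, Sult1b1 and Sult1d1 lie at 0, and Ugt2a1 and Ugt2a2 had no counts.

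The cluster on chromosome 5 spans 702 kb and holds 13 of the genes: 7 Ugt2b, 3 Ugt2a and 3 Sult1 genes. Ugt2a3 was the expressed Ugt2a gene (194 and 212 CPM with HFD alone, 183 and 197 CPM in I3A livers; log2 fold change -0.09 ± 0.10), and Ugt2a1 and Ugt2a2, known from olfactory tissue, had 0 counts in all 4 libraries. Only 30 exon bases of Ugt2a1 and 140 of Ugt2a2 overlap no exon of another gene (each other or Gm43638). Reads of either could therefore hardly be assigned to it alone. Of their 50-base stretches, 68.4% and 68.6% occur in the other gene of the pair. Neighbours in the cluster thus had log2 fold changes from -0.68 to 0.95 among the Ugt2b and Ugt2a genes, each with an SE of at most 0.25.

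The Ugt1a locus (chromosome 1, 88055388 to 88220002) is built differently: its 9 genes each have a first exon of their own and share the remaining exons. By the annotation, 385 of 2224 exon bases of Ugt1a1 and 938 of 2382 of Ugt1a6b overlap no exon of another gene. The CPM of this family may therefore come from a part of each transcript. Ugt1a1, the bilirubin-conjugating enzyme, averaged 30.8 CPM per kb of its whole length and 178 CPM per kb of its unshared length. It was level between the groups, at 64.6 and 68.7 CPM with HFD alone and 74.4 and 66.3 CPM in I3A livers (log2 fold change 0.08 ± 0.11). Ugt1a6b, one of a pair of enzymes for planar phenols, was level too (28.4 and 22.2 CPM against 30.0 and 25.4 CPM; 0.13 ± 0.17). Its partner Ugt1a6a varied more within groups than between them, with 10.4 CPM in HFD 334 and 12.4 CPM in I3A 303 beside 3.15 CPM in HFD 335 and 5.34 CPM in I3A 305. Its log2 fold change of 0.38 ± 0.64 was -0.24 without HFD 335 and -0.32 without I3A 303.

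The weakly expressed Ugt1a5 and Ugt1a9 measured higher in I3A livers without overlap. Ugt1a5 had 2.28 and 2.18 CPM with HFD alone and 4.12 and 5.17 CPM in I3A livers, 2.08-fold (log2 fold change 1.06 ± 0.30; edgeR adjusted p = 0.295), and Ugt1a9 had 4.56 and 7.70 CPM against 9.84 and 8.07 CPM (0.54 ± 0.30). All 5 tested Ugt1a genes had positive fold changes with all libraries, but 3 signs were not stable: Ugt1a1 was -0.01 with library size scaling, Ugt1a6b was -0.04 without HFD 335, and Ugt1a6a turned as given above. Ugt1a2, Ugt1a7c, Ugt1a8 and Ugt1a10 had at most 11 counts in a library. On chromosome 15, Ugt3a2, which uses sugars other than glucuronic acid, was level at 479 and 497 CPM with HFD alone and 469 and 480.4 CPM in I3A livers. Its neighbour Ugt3a1 was slightly lower in I3A livers (96.9 and 95.0 CPM against 82.7 and 78.4 CPM; log2 fold change -0.25 ± 0.09; edgeR adjusted p = 0.353). All 21 UGT genes together summed to 3228 and 3189 CPM with HFD alone and to 2835 and 2889 CPM in I3A livers, a ratio of 0.892 without overlap.

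Among the glutathione S-transferases the membrane enzyme Mgst1 (chromosome 6, 138140316 to 138156755, plus strand), which also reduces lipid peroxides, was the most abundant of all the conjugation genes. It measured 2600.3 and 2465 CPM with HFD alone and 3106 and 3148 CPM in I3A livers. Both I3A livers lay above both HFD livers by more than the gaps within the groups (1.23-fold, log2 fold change 0.30 ± 0.12; edgeR adjusted p = 0.383). Mgst3 was weak and pointed the other way (3.64 and 5.04 CPM against 2.90 and 1.98 CPM; log2 fold change -0.84 ± 0.35; edgeR adjusted p = 0.403), and Mgst2 had at most 4 counts. With Mgst1 included, the summed CPM of the 25 GST genes was higher in I3A livers (5173 and 5044 CPM with HFD alone, 5525 and 5725 CPM in I3A livers), while without the Mgst genes the sums overlapped (2569 and 2574 CPM against 2415 and 2575 CPM).

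The cytosolic GST classes are dimeric enzymes that differ in substrate. In the mu class on chromosome 3, Gstm1 held 71.9% of the CPM and was level (278 and 303 CPM with HFD alone, 285 and 302 CPM in I3A livers; log2 fold change 0.01 ± 0.10). Gstm4 (108040408 to 108044894, minus strand) was 1.47-fold higher in I3A livers, from 29.2 and 27.6 CPM to 44.6 and 38.9 CPM (log2 fold change 0.56 ± 0.12; adjusted p = 0.225 in edgeR, 0.0822 in DESeq2). None of its 50-base stretches is shared with another gene, whereas 18.9% of those of Gstm1 are. Gstm5 was higher without overlap at low level (2.54 and 4.004 CPM against 4.63 and 5.23 CPM; 0.59 ± 0.32), Gstm6 slightly lower (25.2 and 23.3 CPM against 23.1 and 19.6 CPM), and Gstm2, Gstm3 and Gstm7 overlapped between the groups.

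In the alpha class Gsta3, the enzyme that detoxifies aflatoxin epoxide in mice, held 95.2% of the CPM. It measured 309 and 399 CPM with HFD alone and 307 and 290.2 CPM in I3A livers, so that HFD 335, the library with transcripts of other tissues, stood apart and the other 3 lay together. The log2 fold change of -0.24 ± 0.15 was -0.05 without HFD 335. Gsta4, which clears hydroxynonenal from lipid peroxidation, overlapped between the groups (15.6 and 10.9 CPM against 13.6 and 9.29 CPM; -0.21 ± 0.27). Gsta2 was weak (2.73 and 3.64 CPM against 4.57 and 3.89 CPM), and Gsta1 had at most 4 counts. As 49.8% of the 50-base stretches of Gsta2 and 90.5% of those of Gsta1 occur in other genes, the counts of this pair are uncertain.

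Gstp1, the pi class enzyme abundant in male mouse liver, measured 889 and 838 CPM with HFD alone and 649 and 871 CPM in I3A livers. It was low in I3A 303 alone, and its log2 fold change of -0.18 ± 0.17 turned to 0.03 without that library. The weaker Gstp3 (11.6 and 7.46 CPM against 7.53 and 5.63 CPM; -0.53 ± 0.29) and Gstp2 (2.21 and 1.52 CPM against 0.901 and 1.34 CPM) were also lower on average, without passing the test. In the theta class the I3A livers differed from each other: Gstt1 was 149.9 and 141 CPM in HFD, 136 CPM in I3A 303 and 89.8 CPM in I3A 305, while Gstt2 was 64.2 and 59.2 CPM in HFD, 112 CPM in I3A 303 and 62.6 CPM in I3A 305. The log2 fold change of Gstt1 was thus -0.37 ± 0.20 with all libraries and -0.10 without I3A 305, and that of Gstt2 was 0.50 ± 0.27 and 0.04 without I3A 303. Gstt3 overlapped between the groups, and Gstt4 had 1 count in all.

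The single genes of the remaining classes were level or nearly so. Gstk1 of mitochondria and peroxisomes measured 95.5 and 89.7 CPM with HFD alone and 93.2 and 90.5 CPM in I3A livers (log2 fold change -0.01 ± 0.09). Gsto1, a thiol transferase of the omega class, measured 78.9 and 72.0 CPM against 76.4 and 78.9 CPM (0.04 ± 0.10). Gstz1, which isomerizes maleylacetoacetate in tyrosine breakdown, was slightly higher in I3A livers without overlap (560.2 and 533 CPM against 603 and 636 CPM; 0.18 ± 0.10; edgeR adjusted p = 0.505). Gsto2 had at most 4 counts in a library.

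**Figure D2:**
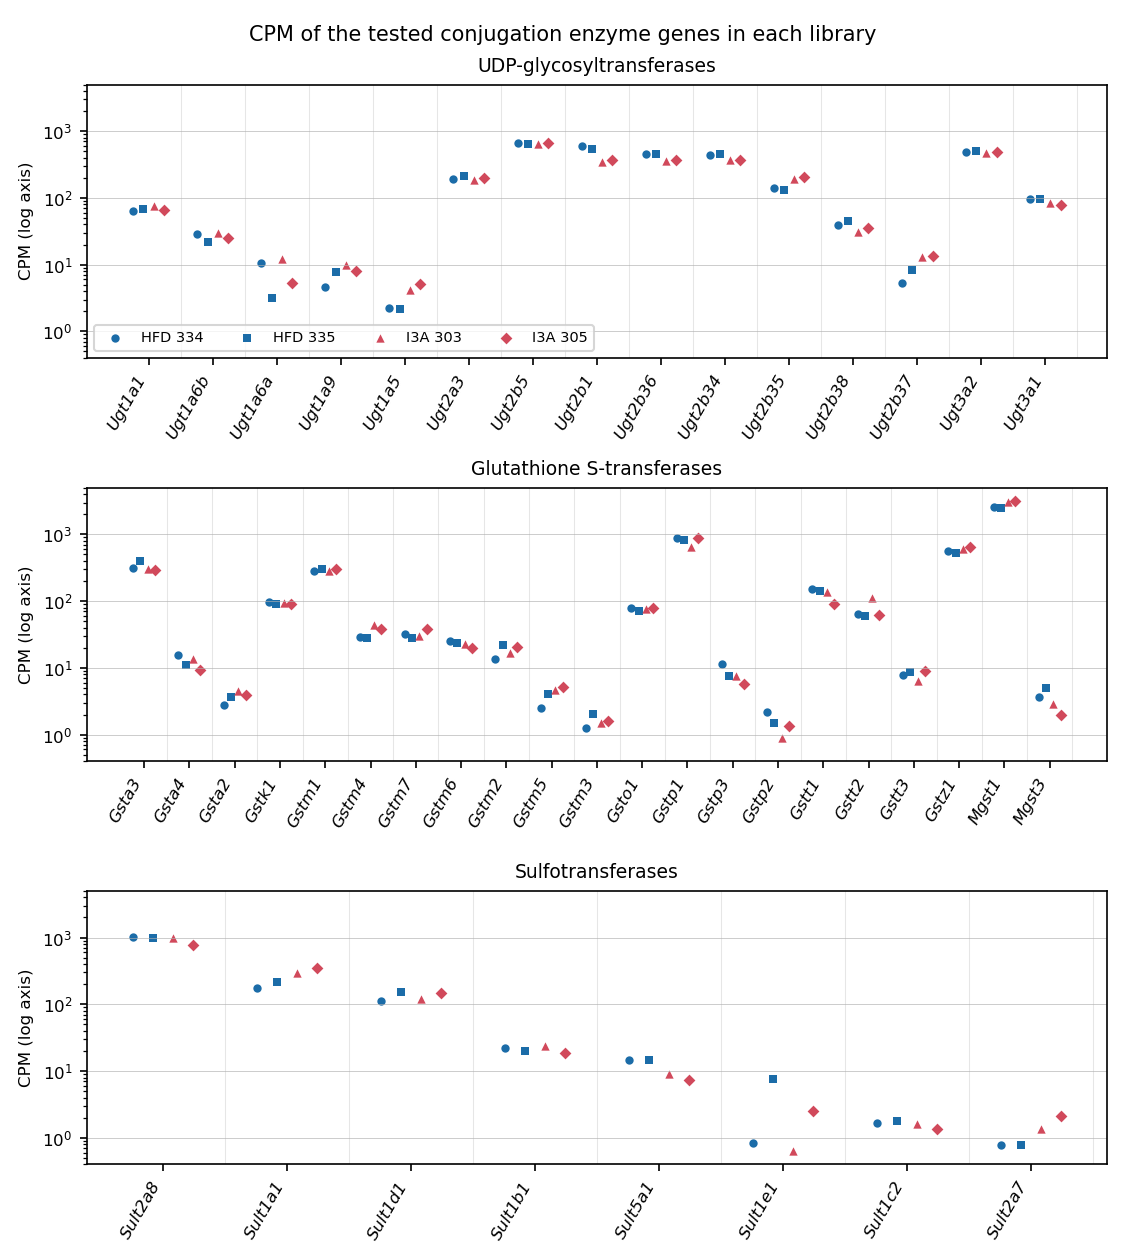
CPM of the 44 tested conjugation genes in each library (y axis, log scale), ordered by family and by mean CPM, with HFD libraries as blue circles and squares and I3A libraries as red triangles and diamonds. The groups overlap in 20 of the 44 genes. Ugt2b1 and Sult5a1 show both red points below both blue points, Ugt2b35, Sult1a1 and Gstm4 show the reverse, and Sult1e1 and Ugt1a6a are spread within each group.

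Among the sulfotransferases Sult1a1 (chromosome 7, 126672865 to 126676432, minus strand), the enzyme for simple phenols, was 1.68-fold higher in I3A livers. It measured 176 and 213 CPM with HFD alone and 298 and 356 CPM in I3A livers, and the groups did not overlap (log2 fold change 0.75 ± 0.15; adjusted p = 0.211 in edgeR, 0.00141 in DESeq2). For each count of Sult1d1, its relative on chromosome 5, there were 1.56 and 1.38 counts of Sult1a1 with HFD alone and 2.50 and 2.42 in I3A livers. This pair was not set in advance. Sult1d1, which sulfates catecholamines, was itself level in the means (113 and 154 CPM against 119 and 147 CPM; -0.01 ± 0.18), as was Sult1b1 of thyroid hormone sulfation (21.8 and 20.2 CPM against 23.4 and 18.9 CPM).

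Sult5a1 (chromosome 8, 123140192 to 123158315, minus strand) was 1.80-fold lower in I3A livers, at 14.8 and 14.6 CPM in HFD against 9.01 and 7.32 CPM (log2 fold change -0.85 ± 0.18; adjusted p = 0.225 in edgeR, 0.0627 in DESeq2). Sult2a8, which sulfates bile acids, held 68.4% of the summed SULT CPM. It measured 1027 and 991 CPM in HFD, 980.4 CPM in I3A 303 and 768 CPM in I3A 305, so the lower mean of the I3A livers rested on I3A 305 (log2 fold change -0.21 ± 0.15, and -0.05 without that library). Sult1e1, the estrogen sulfotransferase, had 126 counts in HFD 335, 44 in I3A 305, 13 in HFD 334 and 10 in I3A 303. Its log2 fold change of -1.40 ± 1.07 was 0.93 without HFD 335, the library with the muscle and pancreas transcripts. At the lower end Sult2a7 had 12 and 13 counts with HFD alone and 21 and 37 in I3A livers (1.15 ± 0.46; edgeR adjusted p = 0.386), and Sult1c2 had 23 to 29 counts. Sult sums overlapped between the groups (1357 and 1404 CPM with HFD alone, 1434 and 1303 CPM in I3A livers). I3A 303 lay above both HFD libraries and I3A 305 below both.

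Of the 21 SULT genes 13 were not tested. Sult2a1, Sult2a2, Sult2a3, Sult2a4, Sult2a5 and Sult2a6, known as female-predominant in mouse liver, had 0 counts in every library, as had Sult1c1 and Sult6b2. Sult3a1, another female-predominant gene, had 0 counts in both HFD libraries and 4 and 8 in the I3A libraries, and Sult3a2 had 2 counts in I3A 305 alone. Sult2b1, Sult4a1 and Sult6b1 had at most 4 counts in a library. Altogether 23 of the 67 genes stayed below the filter on low counts, 10 of them with 0 counts throughout. The 44 tested genes each had at least 10 counts in every library, so none entered through 1 group alone.

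**Figure D3:**
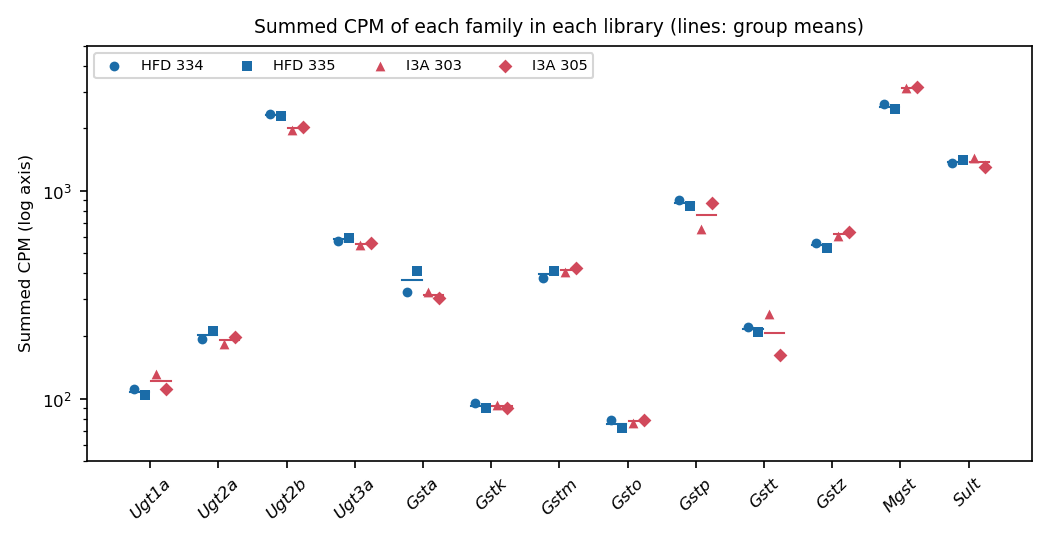
Summed CPM of each family (y axis, log scale) in the 2 HFD libraries (blue) and the 2 I3A libraries (red), with short lines at the group means. Ugt2b lies lower in I3A livers (2313 against 1995 CPM in the means), Mgst and Gstz lie higher, Gsta, Ugt3a and Ugt2b do not overlap on the lower side, and Gstp and Gstt differ mainly between the 2 I3A libraries.

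The sum over all 67 genes barely differed, at 9758 and 9637 CPM with HFD alone and 9794 and 9917 CPM in I3A livers. These sums are 0.964% to 0.992% of the library size after TMM scaling. The TMM factors were 1.03 and 1.04 with HFD alone and 0.995 and 0.944 in I3A livers. Shares of the raw counts are therefore larger than these with HFD alone and smaller in I3A livers. Compared per length, Mgst1 stood first (1406 CPM per kb, mean of the 4 libraries), followed by Gstp1 (1072 CPM per kb of its deposited length, 524 by the longer annotated one), Ugt2b5 (353), Sult2a8 (287), Ugt2b36 (199), Gstm1 (198), Ugt2b1 (179), Sult1a1 (173), Ugt3a2 (155) and Gstz1 (115). In this order the libraries of neighbours overlapped for Ugt2b36 and Gstm1, Gstm1 and Ugt2b1, Ugt2b1 and Sult1a1, and Sult1a1 and Ugt3a2, and not for the other 5 pairs. In each of these overlapping pairs the order turned between the groups. Ugt2b36 lay above Gstm1 with HFD alone (220.4 and 220.8 against 189 and 206 CPM per kb). In I3A livers Ugt2b36 lay below Gstm1 (176 and 180.5 against 194 and 205). Next, Ugt2b1 lay above Sult1a1 with HFD alone (230.2 and 212 against 117 and 142 CPM per kb). In I3A livers Ugt2b1 lay below Sult1a1 (134 and 142 against 198 and 236). Ugt2b1 lay above Gstm1 with HFD alone (230.2 and 212 against 189 and 206 CPM per kb) and below it in I3A livers (134 and 142 against 194 and 205). Sult1a1 lay below Ugt3a2 with HFD alone (117 and 142 against 154 and 160.4 CPM per kb) and above it in I3A livers (198 and 236 against 151 and 155). The order rests on the deposited lengths, and Ugt1a1 would stand among these genes by its unshared length. The median distance between libraries over the 44 tested genes was 0.12 on the log2 CPM scale for the HFD pair and 0.24 for the I3A pair, and 0.26 to 0.37 for the 4 pairs across groups. Over all 13403 tested genes the same distances were 0.21, 0.21 and 0.23 to 0.27.

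In the edgeR fit that called none of the 44 genes after adjustment, at an unadjusted p under 0.05 stood 13 of the 44 (29.5%), beside 12.9% of all tested genes. Of these, 7 were higher in I3A livers (6.66% of all tested genes) and 6 lower (6.24% of all tested genes). The 13 comprised 6 of the 7 Ugt2b genes, Ugt1a5, Ugt3a1, Gstm4, Mgst1, Sult1a1, Sult2a7 and Sult5a1, so that 8 were UGT, 2 GST and 3 SULT genes. Without HFD 335 the split was 7 higher and 3 lower while the share over all genes was 10.1%, and without I3A 305 it was 5 and 5 while the share over all genes was 5.44%. In edgeR without a filter on low counts, 6 of the genes passed (Gstm4, Sult1a1, Sult5a1, Ugt2b1, Ugt2b35 and Ugt2b37), beside 2.57% of all genes. Leaving out HFD 334, HFD 335, I3A 303 or I3A 305, edgeR called none of them, beside 2.36%, 0.152%, 0.298% and 0% of all genes.

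The groups did not overlap in 24 of the 44 genes (54.5%), beside 45.5% of all tested genes, with 11 higher (23.1% of all tested genes) and 13 lower in I3A livers (22.5% of all tested genes). Fold changes were positive in 20 and negative in 24 genes, with a median of -0.01 on the log2 scale, the same as over all tested genes. The size of the differences had a median of 0.27, against 0.21 over all tested genes. The superfamilies had medians of -0.01 (UGT, 15 genes), -0.01 (GST, 21 genes) and -0.11 (SULT, 8 genes). With 2 libraries against 2, an exact permutation test of a single gene cannot go below p = 0.333, so each test leans on the spread shared across genes.

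**Figure D4:**
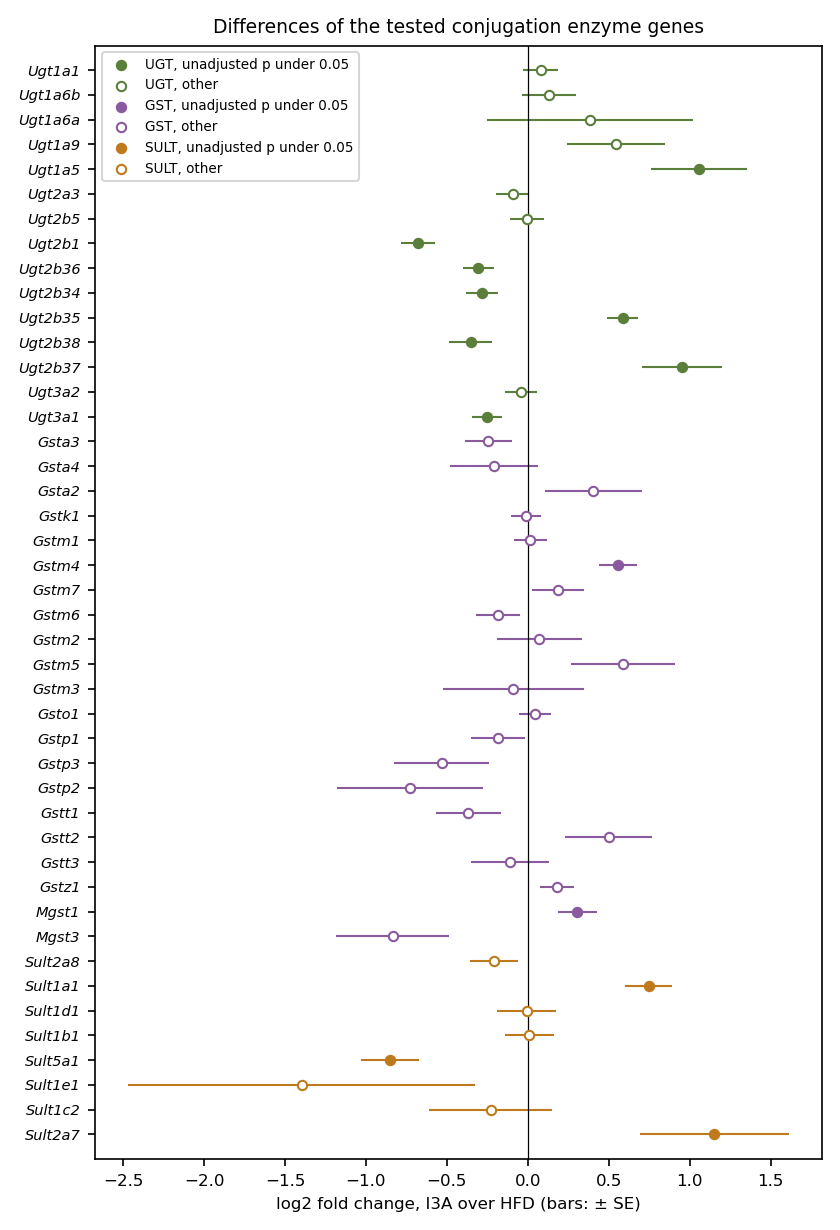
Log2 fold change of I3A over HFD (x axis, bars ± SE from the edgeR fit) for the 44 tested conjugation genes, ordered by family, with UGT in green, GST in purple and SULT in orange. Filled points mark the 13 genes at an unadjusted p under 0.05, open points the others, and none of them passed after adjustment in edgeR.

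Genes that supply the cofactors of conjugation were described from a separate list. Of 16 such genes 10 had positive and 6 negative fold changes, and 0 passed in edgeR after adjustment (5 at an unadjusted p under 0.05, 3 higher and 2 lower, beside 12.9% of all tested genes). Ugdh, which oxidizes UDP-glucose to the glucuronic acid donor, measured 74.1 and 79.0 CPM with HFD alone and 96.9 and 119 CPM in I3A livers (log2 fold change 0.49 ± 0.13; adjusted p = 0.270 in edgeR, 0.101 in DESeq2), while Ugp2, which makes UDP-glucose one step earlier, went the other way (340.5 and 266 CPM against 238 and 197 CPM; -0.48 ± 0.16). For glutathione, Cth, which makes cysteine, was 2.55-fold higher (249 and 265 CPM against 549.7 and 761 CPM; adjusted p = 0.145 in edgeR, 6.62e-10 in DESeq2). Gclc, the catalytic subunit of the first glutathione-making enzyme, was lower (250.4 and 195 CPM against 183 and 148 CPM; -0.43 ± 0.17). Papss2, which makes the sulfate donor PAPS in liver, overlapped between the groups (103 and 154 CPM against 123 and 112 CPM).

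Enzymes of methylation, acylation and other conjugations outside the 3 superfamilies (17 tested) had 8 genes at an unadjusted p under 0.05, beside 12.9% of all tested genes, 6 higher and 2 lower in I3A livers, and 0 after adjustment in edgeR. Bhmt, a methyltransferase of homocysteine, was 2.04-fold higher (adjusted p = 0.160 in edgeR, 1.27e-09 in DESeq2). Tpmt, the thiopurine methyltransferase, was 1.49-fold higher (32.5 and 29.4 CPM with HFD alone, 44.5 and 47.9 CPM in I3A livers; adjusted p = 0.208 in edgeR, 0.0456 in DESeq2). Of the 9 transporters that export conjugates none was at an unadjusted p under 0.05, and Abcc2, the canalicular exporter, measured 486 and 551 CPM against 604 and 556 CPM. Of 9 tested deconjugating and glutathione-processing genes 2 were at that level, beside 12.9% of all tested genes, Ggt6 higher and Ces1d lower. Ces1d, a carboxylesterase, differed between the I3A livers (182 and 73.0 CPM) more than between the HFD livers (285 and 319.6 CPM).

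Of the receptors and factors known to regulate conjugation genes, 0 of 18 passed in edgeR after adjustment. At an unadjusted p under 0.05 stood 3 of the 18, beside 12.9% of all tested genes. Nr1i2, the xenobiotic receptor PXR, was lower in I3A livers (116 and 103 CPM against 92.1 and 78.1 CPM; log2 fold change -0.36 ± 0.12), as was Nfe2l2, which encodes NRF2 (46.2 and 42.0 CPM against 37.6 and 32.0 CPM; -0.34 ± 0.13). Esr1, the estrogen receptor, was 2.32-fold higher on average, at 9.37 and 11.3 CPM in HFD, 15.3 CPM in I3A 303 and 32.5 CPM in I3A 305 (adjusted p = 0.311 in edgeR, 0.0465 in DESeq2). Ahr, the aryl hydrocarbon receptor, varied within the HFD pair (48.0 and 25.4 CPM, against 49.5 and 61.6 CPM in I3A livers), and Nr1i3, the receptor CAR, overlapped between the groups. Of 5 tested AhR targets 4 had negative fold changes, but that of Cyp1b1, with 55 counts in HFD 335 and 12 to 21 elsewhere, turned from -0.72 to 0.68 without HFD 335. Cyp1a2 was 1.74-fold lower (325 and 309 CPM against 194 and 171 CPM; adjusted p = 0.145 in edgeR, 2.19e-06 in DESeq2). Cyp1a1 was near the floor, with 12 and 11 counts with HFD alone and 5 and 6 in I3A livers (log2 fold change -1.09 ± 0.55; edgeR adjusted p = 0.462). Nqo1, a quinone reductase that counts among the targets of AhR and of NRF2, was 3.08-fold higher from a low level (1.30 and 2.37 CPM against 5.28 and 6.10 CPM; adjusted p = 0.238 in edgeR, 0.0399 in DESeq2). Of 10 tested NRF2 targets 7 had positive and 3 negative fold changes, with a median of 0.20. In edgeR 4 of the 10 had an unadjusted p under 0.05, 3 higher and 1 lower, beside 12.9% of all tested genes. After adjustment 0 passed.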

How the data were processed

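Liver RNA of mice was sequenced in 4 libraries, 2 for each group. The deposited table holds raw whole-number counts per gene, made by the authors; per the submitters' processing notes HISAT2 and featureCounts 1.5.0-p3 were used with the genome build GRCm38. How multi-mapping reads and strand were handled, and which gene annotation was used, is not given in these sources. Genes kept by filterByExpr with a minimum count of 10 were fitted in edgeR 4.0.16 with TMM scaling and group as the single term, and p-values were adjusted by Benjamini-Hochberg over all 13403 genes tested. The SE is the log2 fold change divided by the square root of F. Other scalings, other filters, DESeq2 1.42.0, limma-voom 3.58.1 and leaving out each library were alternatives, and the fits were tested on simulated counts. Exon overlap and shared 50-base stretches came from GENCODE vM21, promoter windows from RefSeq. Values in every library and a fold change were given for the 2 members of each family with the highest mean CPM (at least 2) and the 16 with the smallest unadjusted p (where no adjusted p is printed, it lay between 0.48 for Gstt2 and 0.989 for Ugt2b5 in edgeR); of the related lists, the 3 genes with the smallest unadjusted p were named, with Ahr, Nr1i2, Nr1i3, Nfe2l2, Ugdh, Papss2, Gclc, Cyp1a1, Nqo1 and Abcc2 in any case; 1 gene of these lists is not reported here. The members and lists were chosen with earlier results of these data known.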

Additional observations from a re-analysis of the deposited data

How the results depend on the processing

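Of the 44 tested genes 28 kept one sign under every alternative and 16 changed it under at least 1, most of them genes with a fold change near 0. edgeR without a filter called 619 genes, 6 of them conjugation genes; DESeq2 called 335 and 3; leaving out a library gave 0 to 343 genes. With library size scaling the median fold change (log2) of the conjugation genes was -0.10, as was that of all genes (-0.10), and leaving out a library gave -0.034 to 0.0027. That scaling turned Gstm1 to -0.078, Gstm2 to -0.026, Gsto1 to -0.048, Sult1b1 to -0.077 and Ugt1a1 to -0.010. Upper-quartile scaling turned Gstk1 to 0.0031, Sult1d1 to 0.0048 and Ugt2b5 to 0.0091; Sult1d1 was 0.0015 without the filter and 0.0031 in limma-voom, where Sult1b1 was -0.00087. Library size scaling gave family ratios (log2 of the summed CPM) of -0.19 for Ugt2a, -0.30 for Ugt2b, -0.16 for Ugt3a, -0.10 for Gstk, -0.021 for Gstm, -0.049 for Gsto, 0.089 for Gstz, 0.21 for Mgst and -0.10 for Sult, and CPM per kb gave 0.12 for Sult. Leaving out each library moved the family ratios of Ugt2b to -0.24 to -0.18, Ugt3a to -0.087 to -0.047, Gsta to -0.38 to -0.057, Gstk to -0.056 to 0.047, Gsto to -0.023 to 0.12, Gstp to -0.41 to 0.023, Gstt to -0.40 to 0.23, Gstz to 0.14 to 0.24 and Mgst to 0.27 to 0.35. Single genes that changed sign ranged, over the libraries left out, from -0.49 to 0.085 for Gsta4, -0.056 to 0.047 for Gstk1, -0.034 to 0.077 for Gstm1, -0.023 to 0.38 for Gstm7, -0.23 to 0.48 for Gstm2, -0.39 to 0.33 for Gstm3, -0.023 to 0.12 for Gsto1, -0.41 to 0.030 for Gstp1, -0.38 to 0.13 for Gstt3, -0.20 to 0.23 for Sult1d1, -0.13 to 0.15 for Sult1b1, -2.71 to 0.93 for Sult1e1, -0.038 to 0.33 for Ugt1a6b, -0.32 to 1.49 for Ugt1a6a and -0.046 to 0.050 for Ugt2b5. The library left alone in its group was assumed to vary like the others; the cause of these shifts was not tested. No paired analysis was possible because the groups share no replicate numbers. With 2 libraries a group, differences near the SE of about 0.10 of well-counted genes could not be resolved, and genes under the floor of 3 counts allow no fold change.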
